A study of Mus musculus with 2 samples.

Results

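The IL-17 effector genes described here are 7 named genes, Il17a, Il17f, Il22, Il23r, Il1r1, Ccr6 and Cd163l1, taken by name from the 31053 genes counted in each of 2 single-cell libraries. All 7 were present in both. Their unique molecular identifiers (UMIs, each standing for 1 captured RNA molecule) were followed in γδ T cells, CD4 T cells and the other lymphocytes. The cells came from C57BL/6 mice that carried GL261 cells, a mouse glioma line, injected into the brain. At day 20 the tissue around the tumour was taken out and its cells with a high level of CD45, the surface protein of leukocytes, were sorted, so the sort sets which cells could be counted. One group drank control water (DW) and the other drank water with metformin, a drug used to lower blood glucose; both carried the same tumour line. How many mice were used, their sex, the dose and the sort gates are not stated in the labels, and each group is 1 library, so no test between the groups can be made and every interval covers counting error only.

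IL-17A and IL-17F are cytokines that act on epithelial, stromal and myeloid cells to raise neutrophil-attracting chemokines, and IL-22 acts on barrier epithelium. They are made by T helper 17 cells, by a subset of γδ T cells that acquires the program in the thymus, and by innate lymphoid cells. IL-23 and IL-1β drive these cells through IL-23R and IL-1R1, CCR6 is the receptor for the chemokine CCL20, and Cd163l1 encodes SCART1, a scavenger receptor known from IL-17-producing γδ T cells.

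Gene positions are from GENCODE M21 on GRCm38, the assembly named mm10 in the submitters' processing notes, and all 7 identifiers matched. Il17a (chromosome 1, 20730905 to 20734496, plus strand) and Il17f (chromosome 1, 20777146 to 20790617, minus strand) are neighbours separated by 42649 bases with no annotated gene between them. Il1r1 lies elsewhere on chromosome 1 (40225080 to 40317257, plus) and overlaps the gene model Gm38070 on the same strand, so reads of the pair cannot be fully separated. Il23r lies on chromosome 6 (67422932 to 67491855, minus), Cd163l1 on chromosome 7 (140218267 to 140231145, plus), Il22 on chromosome 10 (118204942 to 118210047, plus) and Ccr6 on chromosome 17 (8236043 to 8257141, plus). No other annotated gene overlaps those.

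The 250 bases before the RefSeq start are shown for the neighbouring cytokine genes, because their RNAs were carried by different kinds of T cell: Il17a by cells with δ-chain and with α-chain receptor RNA, Il17f mostly by the latter. The sequences are RefSeq's on GRCm38.p6, read 5′ to 3′ on the gene's strand, Il17a at chr1:20730655-20730904 on the plus strand and Il17f at chr1:20784271-20784520 on the minus strand, where RefSeq's Il17f start lies inside the GENCODE gene. Capitals mark the letters AGGTCA or, on the opposite strand, TGACCT, a core element shared by the binding sites of many nuclear receptors.
Il17a: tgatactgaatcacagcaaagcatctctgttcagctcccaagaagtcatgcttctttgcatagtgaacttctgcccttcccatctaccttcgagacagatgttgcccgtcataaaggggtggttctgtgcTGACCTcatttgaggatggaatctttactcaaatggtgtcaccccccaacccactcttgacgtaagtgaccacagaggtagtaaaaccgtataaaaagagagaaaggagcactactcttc
Il17f: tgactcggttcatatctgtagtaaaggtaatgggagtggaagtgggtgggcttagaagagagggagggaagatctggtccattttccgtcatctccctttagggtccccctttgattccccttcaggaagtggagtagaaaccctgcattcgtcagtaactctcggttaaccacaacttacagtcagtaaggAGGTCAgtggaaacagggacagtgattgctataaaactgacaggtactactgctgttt
Each of these windows held 1 match. In Il17a it was on the opposite strand with 114 bases between it and the start, and in Il17f on the gene's own strand with 52 bases between. The promoter table held 9 windows for the 7 genes, since Il1r1 and Ccr6 have 2 starts each, and 4 of the 9 windows, of Il17a, Il17f, Il23r and Ccr6, contained the letters. Across all 32851 windows of this length 14.02% contained them. The other matches are shown with their surroundings, Il23r at chr6:67492067-67492096 and chr6:67491904-67491933 on the minus strand and Ccr6 at chr17:8235987-8236016 on the plus strand.
Il23r, far match: catgaccaccatTGACCTgtttgacttctt
Il23r, near match: aaatgaaaatgtAGGTCAgggctctgctga
Ccr6: cagtgaaatcatTGACCTagttacataagt
A match is a description of these letters only; the windows of Il22, Cd163l1 and both starts of Il1r1 held none.

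After filtering, 5373 control and 4569 metformin cells remained with 46751843 and 44088764 UMIs, of which 3140 and 2613 were lymphocytes (58.4% and 57.2%). The 2 libraries shared 9 barcodes, none of them on a cell with Il17a or in the γδ class. Cell classes were rebuilt from the counts, so they may differ from the study's own. The 7 genes and the lists of the program's regulators, receptor partners, receptor chains, cytokines and target genes were not used to draw the clusters. T cell receptor genes and surface genes known from IL-17-producing γδ T cells could be used, so the classes are not independent of them. The class called γδ T-like held 67 control and 57 metformin cells (1.25% of cells in each library), at medians of 6693 and 6725 UMIs. It was led by Cd163l1, Il17a, Tcrg-C1, Trdc, Tmem176a and Blk. All 7 of its fixed markers were detected in both libraries.

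The name covers only part of that class. A split by receptor RNA was added after its make-up was seen: a T cell here is a cell of the T, NK and innate lymphoid clusters that has any UMI of the CD3 genes Cd3d, Cd3e and Cd3g. Such a cell with more Trdc (δ constant chain) than Trac (α constant chain) UMIs was called δ-chain, and such a cell with more Trac than Trdc was called α-chain. Of the 124 cells of the class, 66 were δ-chain (34 control, 32 metformin), 38 were α-chain (22 and 16) and 20 were neither (11 and 9). The class also held 7 cells with Il13 or Il5, cytokines of group 2 innate lymphoid cells; none of these 7 had a UMI of any of the 7 genes. The markers of that cell type were at 460 CPM (a gene's UMIs scaled to 1e6 UMIs of the class) in control and 2626 in metformin, and 1 metformin cell gave 79.7% of the latter sum. The 7 CD4 conventional markers were all detected too, at 3276 and 3043 CPM, above the 2603 and 2491 CPM of the 7 γδ markers. In CD4 conventional T-like cells the CD4 conventional markers were at 5332 and 5114 CPM. The 6 B cell markers had 29 UMIs in each library (62.4 and 74.1 CPM), with Ms4a1 and Pax5 at 0 in both. The 6 microglia markers had 55 and 26 UMIs (118 and 66.4 CPM). All 6 were detected in control, while P2ry12, Sall1 and Siglech had 0 in metformin.

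Il17a, Il23r and Cd163l1 were largely RNAs of this small class. In control 370 of 499 lymphocyte UMIs of Il17a were in γδ T-like cells (74.2%, 95% exact Clopper-Pearson interval 70.1 to 77.9), and in metformin 279 of 293 (95.2%, 92.1 to 97.4). For Cd163l1 the numbers were 260 of 277 (93.9%) and 228 of 251 (90.8%). Il23r had few UMIs, 29 of 35 (82.9%) and 25 of 26 (96.2%). Il1r1 was more widely spread, with 47 of 89 (52.8%) in the class in control and 49 of 62 (79.0%) in metformin. Ccr6 had another distribution: only 10 of 721 and 13 of 295 UMIs (1.39% and 4.41%) were in γδ T-like cells, 52.2% and 49.2% were in B-like cells and 37.7% and 30.9% in CD4 conventional T-like cells. By receptor RNA, δ-chain T cells of all clusters held 217 of the 495 Il17a UMIs of T, NK and innate lymphoid cells in control (43.8%) and 264 of 293 in metformin (90.1%), and α-chain T cells with Cd4 held 237 (47.9%) and 10 (3.41%). Outside lymphocytes Il17a had 1 UMI in the myeloid cells of each library, while 19.3% and 23.5% of all Il1r1 UMIs in kept cells were in myeloid classes.

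**Figure D1:**
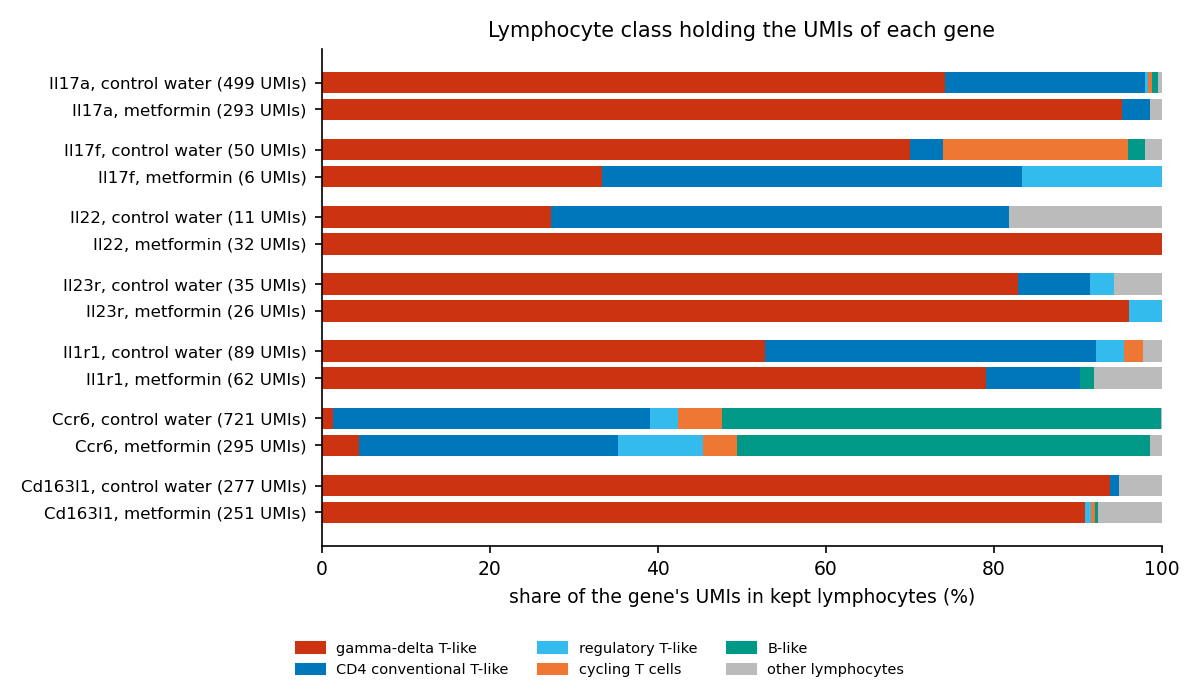
Share of each gene's UMIs in kept lymphocytes (horizontal axis, percent) held by each class, 1 bar per gene and library, with the gene's lymphocyte UMIs in brackets. The γδ T-like class (red) holds over 90% of Cd163l1 in both libraries and under 5% of Ccr6, and the CD4 conventional part of the Il17a bar (blue) is wider in control than in metformin.

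The levels in the other lymphocytes put these shares in order. Il17a stood at 796 CPM (95% exact Poisson interval 717 to 881) in control and 713 CPM (632 to 802) in metformin γδ T-like cells. The next class was CD4 conventional T-like cells, at 23.5 CPM (19.5 to 28.1) in control and 3.04 CPM (1.46 to 5.59) in metformin. Every other lymphocyte class was at or below 2.26 CPM, and there the classes did not differ beyond counting error: B-like cells had 4 and 0 UMIs, CD8 T-like cells 0 and 1, NK-like cells 0 and 1, regulatory T-like cells 2 and 0. Cd163l1 was at 559 and 583 CPM in γδ T-like cells, against at most 11.3 CPM elsewhere: naive T-like cells had 6 and 10 UMIs in 3 cells of each library, and 1 control ILC1-like cell had 4. Ccr6 was highest in B-like cells, at 82.4 CPM (74.3 to 91.2) and 83.2 CPM (70.2 to 98.0), while CD4 conventional T-like cells were at 53.7 (47.5 to 60.5) and 27.7 CPM (22.3 to 34.0) and γδ T-like cells at 21.5 (10.3 to 39.6) and 33.2 CPM (17.7 to 56.8). CD4 conventional cells were thus above γδ T-like cells in control, and in metformin the intervals of these classes overlapped. CD8 T-like and NK-like cells had no Ccr6 UMI in either library.

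Within the γδ T-like class, the summed levels of 4 of the 7 genes did not meet the size rule used here. A gene was called higher or lower where it had at least 20 UMIs in 1 library, the metformin over control ratio of CPM was at least 1.5 either way and the 95% exact conditional interval left out 1. Il17a had a ratio of 0.896 (0.764 to 1.05), Cd163l1 1.04 (0.868 to 1.25), Il23r 1.02 (0.575 to 1.81) and Il1r1 1.24 (0.813 to 1.89), none of which met the rule. When each library was clustered on its own, the γδ class held 217 and 279 Il17a UMIs and the ratio was 1.55 (1.30 to 1.86), which met it. Ccr6, with 10 and 13 UMIs, was too sparse to be judged. Of the 6 genes with enough UMIs, 1 was called higher, Il22, and 1 lower, Il17f, against 7.57% of all 3354 genes measured this deeply in the class. The wide intervals mean that a difference smaller than those bounds was not detectable at this depth.

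Il17f was lower in metformin, with 35 UMIs (75.3 CPM) in control and 2 UMIs (5.11 CPM) in metformin, a ratio of 0.0679 (0.00791 to 0.264). The call was lost when each library was clustered on its own (5 and 2 UMIs, ratio 0.483) and when cells were gated on Trdc and CD3 RNA in place of the cluster (4 and 1 UMIs, 0.193). Most of these UMIs were outside δ-chain cells: of the 35 control UMIs, 30 (85.7%) were in 4 α-chain cells, 4 in 3 δ-chain cells and 1 in a cell of neither kind. The 2 metformin UMIs were split 1 and 1. Restricted to the δ-chain cells of the class, Il17f had 4 UMIs in control and 1 in metformin, too few to be judged. As shares of cells, 8 of 67 and 2 of 57 cells carried Il17f, a ratio of 0.294 whose interval, 0.0304 to 1.47, includes 1.

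Il22 rests on single cells. In metformin all 32 lymphocyte UMIs came from 1 δ-chain cell of the γδ T-like class, which also had 13 UMIs of Cd163l1, 4 of Trdc and 4 of Tcrg-C1, and none of Il17a or Il17f. In control the 11 UMIs came from 4 cells: 6 in a CD4 conventional T-like cell, 3 in an α-chain cell of the γδ T-like class that also had 12 Il17f UMIs, 1 in a CD8 T-like cell and 1 in an NK-like cell. The ratio of 12.7 (3.96 to 64.7) therefore rests on 1 cell in each library.

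Il17a was also carried by few cells, though by more than Il22. In the γδ T-like class 22 of 67 control cells (32.8%, 21.9 to 45.4) and 22 of 57 metformin cells (38.6%, 26.0 to 52.4) had a UMI. When every cell was thinned to 4222 UMIs, which left out 7 and 6 shallower cells, the shares were 35.0% and 37.3%; microglia-like cells at the same depth gave 0.0820% and 0.108%. Among lymphocytes the richest cell held 67 of 499 Il17a UMIs (13.4%) in control and 93 of 293 (31.7%) in metformin, and the 3 richest held 32.1% and 63.5%. Without the richest cell of each library the ratio in γδ T-like cells was 0.731 (0.606 to 0.880), still short of the size rule. Cd163l1, Il1r1 and Ccr6 had smaller shares in 1 cell, and Il23r was near Il17a's share in control: the richest lymphocyte held 5.78% and 9.56% of Cd163l1, 4.49% and 6.45% of Il1r1, 2.36% and 3.73% of Ccr6, and 11.4% and 11.5% of Il23r.

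**Figure D2:**
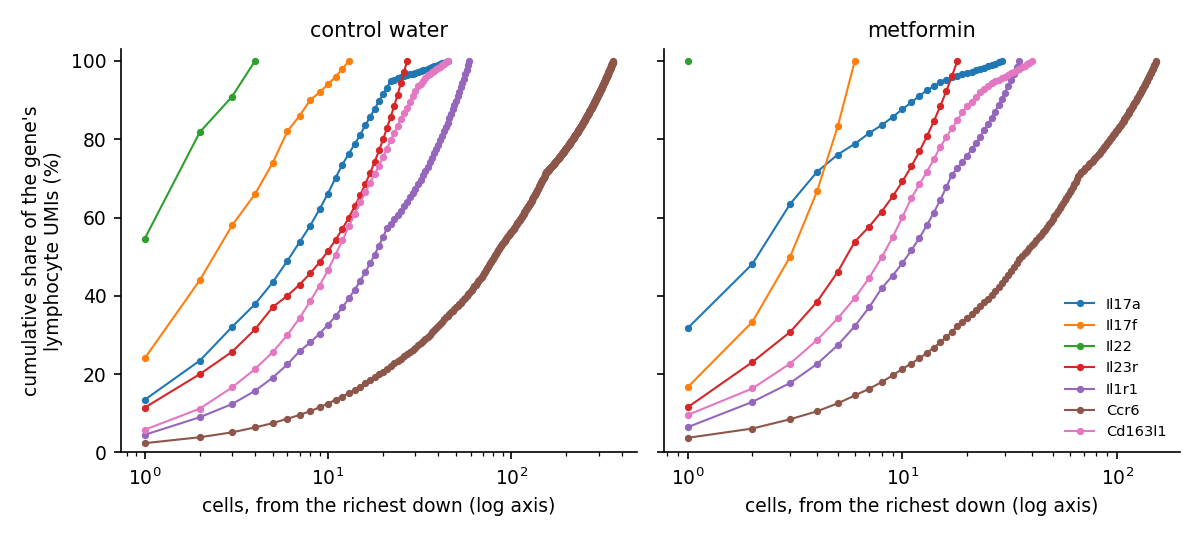
Cumulative share of each gene's lymphocyte UMIs (vertical axis, percent) against the number of cells taken from the richest down (horizontal log axis), control on the left and metformin on the right. The Il22 line in metformin is 1 point at 100%, Il17a is steeper in metformin than in control, and Ccr6 needs 360 and 152 cells to reach 100%.

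The class was then split by receptor for Il17a. In its δ-chain cells Il17a had 217 UMIs (1029 CPM) in control and 262 UMIs (1319 CPM) in metformin, a ratio of 1.28 (1.07 to 1.54) that did not meet the size rule, in 14 of 34 and 17 of 32 cells. Without the richest cell of each library, with 67 and 93 UMIs, it was 1.20 (0.955 to 1.501). In its α-chain cells Il17a had 153 UMIs (884 CPM) in 8 of 22 cells in control and 14 UMIs (125 CPM) in 4 of 16 cells in metformin, a ratio of 0.142 (0.0756 to 0.245), which met the rule; as a ratio of cell shares it was 0.688, with an interval, 0.152 to 2.57, that includes 1. So α-chain cells held 41.35% of the class's Il17a in control and 5.02% in metformin. Cd163l1 was almost wholly δ-chain in both libraries, 257 of 260 and 228 of 228 UMIs, with a ratio of 0.942 (0.784 to 1.13) in those cells. Il1r1 had 32 and 39 UMIs in the δ-chain cells and 13 and 10 in the α-chain cells. Ccr6 had 1 UMI in 1 δ-chain cell in control and 10 UMIs in 7 δ-chain cells in metformin, under the 20 that the rule asks for.

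Outside that class, cells called δ-chain were more numerous, 81 and 110 cells, and nearly lacked the 7 genes. They had 0 and 2 UMIs of Il17a, 0 and 4 of Il1r1, 1 and 10 of Cd163l1 (8 of the 10 in 1 cell) and none of Il17f, Il22, Il23r or Ccr6. The NK cell marker Ncr1 was detected in 31 control and 48 metformin δ-chain cells (104 and 169 UMIs). It had 0 UMIs in the γδ T-like class. The δ-chain rule asks for only 1 CD3 UMI, so the cells outside the class are not shown to be γδ T cells. The part of cells with Ncr1 in the values of this group was not tested. Taking all δ-chain T cells together, 115 and 142, the 5 genes with enough UMIs gave 1 call, Il22 higher by its single cell (0 against 32 UMIs, at least 7.74-fold over a floor of 3 UMIs for the control group), against a background of 5.95%. Cd163l1 there had 258 and 238 UMIs, a ratio of 0.669 (0.559 to 0.801) beside 81 and 110 δ-chain cells outside the class; the ratio was 0.638 and met the rule when the richest cell of each library was left out.

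Receptor segments were then counted in these δ-chain cells. Of the 33 δ-chain cells with Il17a, 26 had Trdv4, the δ variable segment of the invariant Vγ6 Vδ1 receptor, as did 48 of the 64 with Cd163l1; of the 191 δ-chain cells outside the class 9 did. Tcrg-V6, the partner segment, was seen in 8 of the 33, 19 of the 64 and none of the 191. Tcrg-C1, the γ constant gene joined to that segment, was in 31 of the 33 and 58 of the 64, against 66 of the 191. Trdv4, Tcrg-C1 and the other receptor genes were not kept out of the clustering. The contrast with cells outside the class is therefore not independent of how the class was drawn. The cells outside it also include those with the NK cell marker Ncr1. Since 3′ counting reaches variable segments poorly, absence of a segment in a cell is not informative.

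Cells were then counted as cytokine cells where Il17a and Il17f together had at least 2 UMIs, a threshold also set after seeing the data. δ-chain cytokine cells numbered 10 in control and 12 in metformin, or 8.70% and 8.45% of δ-chain T cells, a ratio of 0.972 (0.385 to 2.51). The δ-chain cells that these shares are taken of include the cells with Ncr1. α-chain cytokine cells numbered 19 of 1870 in control and 4 of 1600 in metformin, or 1.02% and 0.25%, a ratio of 0.246 (0.0609 to 0.740). The α-chain ratio was 0.484 with cells of at least 1 UMI counted (29 and 12 cells) and 0.118 with cells of at most 5% mitochondrial UMIs (10 and 1 cells). Whether the 2 ratios differ was not tested. Over every deposited barcode, without any filter on cells, the counts were 22 and 5 α-chain cells (ratio 0.259, 0.0767 to 0.702) and 11 and 13 δ-chain cells (0.933, 0.386 to 2.30).

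The 2 kinds of cytokine cell differed in the other genes they carried. All 22 δ-chain cytokine cells lay in the γδ T-like class. All had Cd163l1 and Tcrg-C1, and none had Cd4. Trdc was in all of them by the definition of δ-chain. Their Il17a ran from 1 to 67 UMIs in control (median 13) and from 2 to 93 in metformin (median 7), while Il17f gave 3 UMIs in 2 cells and 1 UMI in 1 cell. The 19 control α-chain cells had Il17a from 0 to 43 UMIs (median 12) and held 43 Il17f UMIs in 7 cells. Cd4 was detected in 16 of them, Ccr6 in 11, Il1r1 in 7, Il23r in 1 and Cd163l1 in 2. None had Trdc, which the α-chain rule itself keeps below Trac. By class, 8 of these 19 sat in the γδ T-like cluster, 8 among CD4 conventional T-like cells, 2 among cycling T cells and 1 among regulatory T-like cells. The 4 metformin α-chain cells had 2 to 8 Il17a UMIs each and 1 Il17f UMI in all; 3 sat in the γδ T-like cluster, and Cd4 was detected in 1.

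**Figure D3:**
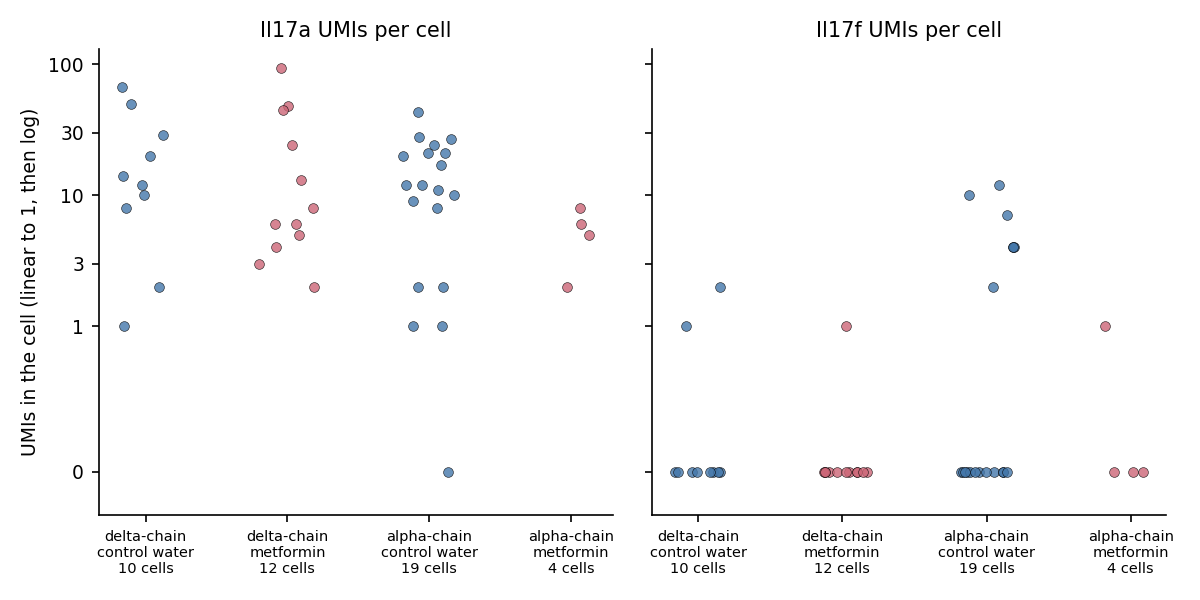
UMIs of Il17a (left) and Il17f (right) in each cell with at least 2 UMIs of the pair, split into δ-chain and α-chain T cells of control (blue) and metformin (red); the vertical axis is linear up to 1 and logarithmic above, and points are jittered sideways. δ-chain cells number 10 and 12 with similar Il17a ranges, α-chain cells 19 and 4, and Il17f above 2 UMIs appears only in control α-chain cells.

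CD4 conventional T-like cells had lower levels in metformin of each member that could be judged. In CD4 conventional T-like cells, 595 in control and 360 in metformin, Il17a had 119 and 10 UMIs, a ratio of 0.129 (0.0605 to 0.246). Il1r1 had 35 and 7 UMIs (6.91 and 2.13 CPM), a ratio of 0.308 (0.116 to 0.704). Ccr6 had 272 and 91 UMIs, a ratio of 0.515 (0.402 to 0.656). All 3 members with at least 20 UMIs were called lower, against 4.89% of 9256 genes called in either direction. Of all genes of the class, 113 were called higher and 340 lower. Counted as cells, Ccr6 was detected in 97 and 36 cells (16.3% and 10.0%) and Il1r1 in 24 and 5, ratios of 0.613 (0.406 to 0.908) and 0.344 (0.103 to 0.921). Il17a was detected in only 14 and 3 cells, a ratio of 0.354 whose interval, 0.0653 to 1.27, includes 1. At 1 depth of 3305 UMIs, which left out 59 and 30 cells, Ccr6 was seen in 10.3% and 3.94%, Il1r1 in 1.49% and 0.303% and Il17a in 1.87% and 0% of cells (0 of 330); microglia-like cells thinned to 4414 UMIs gave 1.58% and 1.31% for Ccr6. One cell held 27 of the 119 control UMIs and 1 cell 8 of the 10 metformin UMIs; without them the ratio was 0.0336 (0.00401 to 0.125).

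Markers of other T cells moved in this class as well: Foxp3, the regulatory T cell factor, had 54 UMIs in 21 cells and 10 in 6, and Cd8a 93 and 38 UMIs. Of the γ constant genes, Tcrg-C1 was called lower, 20 UMIs in 10 cells and 0 in metformin, and Tcrg-C2 higher, 24 and 163 UMIs. Their part in the members' values was not tested, and neither was the difference between the ratios in CD4 and γδ T-like cells.

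The CD4 conventional cells formed 3 clusters. Cluster 5, led by Ccl1 and Penk, with Ccr6 itself among the leading genes although it was not used to cluster, held most Ccr6, 237 and 85 UMIs, a ratio of 0.549 (0.423 to 0.706), and had 45 UMIs of Il17a in 4 of 212 cells and 10 in 3 of 116. Cluster 8, led by Csf1 and Cd4, had 74 Il17a UMIs in 10 of 175 control cells and 0 in 81 metformin cells, at least 13.25-fold lower over a floor of 3 UMIs for the library. Cluster 4, led by Slfn5 and interferon-induced genes, had no Il17a and 20 and 6 UMIs of Ccr6.

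The α-chain T cells with Cd4, taken by receptor and Cd4 RNA whatever their cluster, overlap the class just described and are no independent group. They numbered 754 and 536 cells, of which 475 and 278 were CD4 conventional T-like, 163 and 165 regulatory T-like and 11 and 4 γδ T-like. The 4 control α-chain cells of the γδ T-like class that held 30 Il17f UMIs are among them. So are control cells of that class with 43, 28 and 21 Il17a UMIs. The control values of Il17a and Il17f here and in the γδ T-like class therefore share cells. Foxp3 was at 74.4 and 109 CPM in them, in 159 and 152 cells, Ncr1 had 23 and 4 UMIs and Kit 40 and 15; the part of these markers' cells in the members' values was not tested. Il17a had 237 UMIs in 22 cells (32.3 CPM) against 10 in 3 cells (1.93 CPM), a ratio of 0.0596 (0.0282 to 0.112), and 0.192 (0.0368 to 0.639) as a ratio of cell shares. Il17f had 43 UMIs in 7 cells against 3 in 3 cells, 0.0986 (0.0196 to 0.308), Il1r1 46 against 7, 0.215 (0.0819 to 0.480), and Ccr6 304 against 114, 0.530 (0.423 to 0.659). All 4 members with enough UMIs were called lower, against a background of 4.64% (131 genes higher and 337 lower). For Il17f the ratio of cell shares was 0.603 (0.101 to 2.64). That interval is too wide to say whether the share of cells, the UMIs per cell or both differed. Without the richest cell of each library the Il17a ratio was 0.0146. α-chain T cells with Cd8 had 0 and 2 UMIs of Il17a and 1 and 0 of Ccr6.

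**Figure D4:**
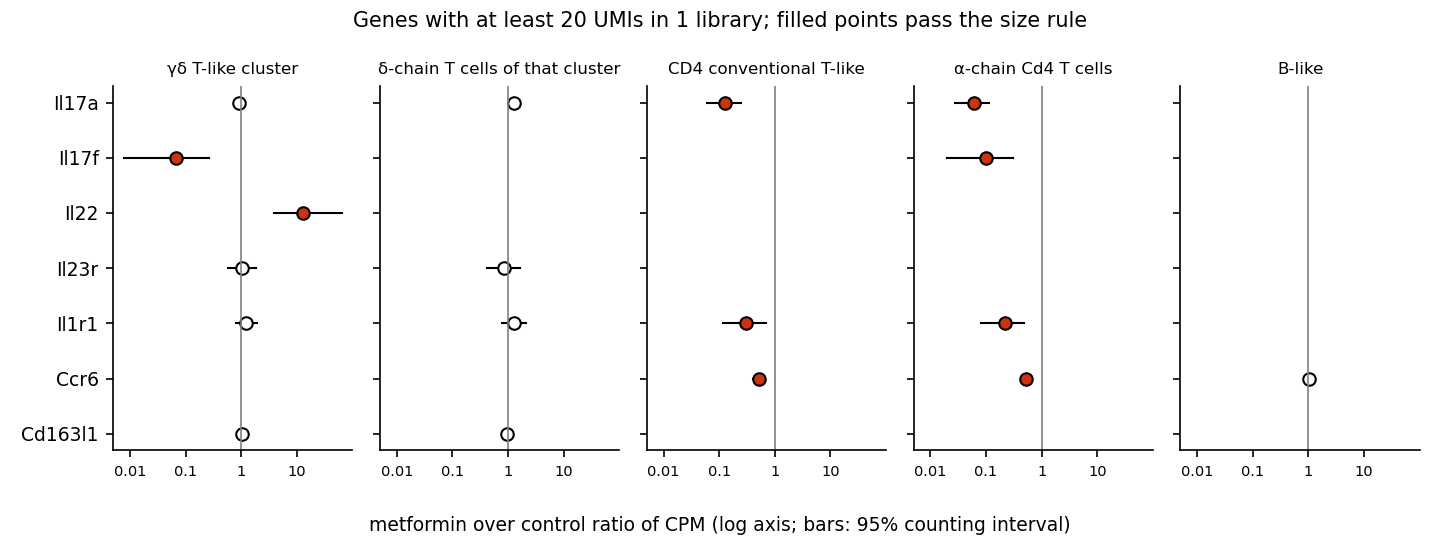
Metformin over control ratio of CPM (horizontal log axis) with its 95% counting interval for each gene with at least 20 UMIs in 1 library, in 5 cell groups; filled points meet the size rule. In the γδ T-like cluster Il17a, Il23r, Il1r1 and Cd163l1 lie near 1, in both CD4 groups every plotted gene lies below 1, and Ccr6 in B-like cells lies at 1.01; Il22 in δ-chain cells, with 0 control UMIs, is not drawn.

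In other lymphocytes few members could be judged. Ccr6 in B-like cells, where it guides positioning in lymphoid tissue, had 376 UMIs in 226 of 659 cells and 145 UMIs in 77 of 251 cells, a ratio of 1.01 (0.828 to 1.23); it was the only member with enough UMIs there and was not called, against a background of 4.57%. In regulatory T-like cells Ccr6 had 24 and 30 UMIs, a ratio of 1.16 (0.658 to 2.08). It was not called, against a background of 4.89% of 8102 genes there. In cycling T cells it had 38 and 12 UMIs, a ratio of 0.291 (0.139 to 0.569), and Il17f had 11 UMIs in 2 control cells and 0 in metformin, at least 3.98-fold lower. So Ccr6 was lower in CD4 conventional and cycling T cells and not called in B-like or regulatory T-like cells. No share over all genes is given for cycling T cells, and the difference between these classes was not tested.

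Detection of the 7 genes was then read cell by cell. In the γδ T-like class 12 of 67 control and 17 of 57 metformin cells had none of them, and the highest number in a cell was 4 in control and 5 in metformin. Over both libraries 44 cells of the class had Il17a, of which 31 also had Cd163l1, 28 Il1r1, 17 Il23r, 8 Ccr6 and 7 Il17f. Of the 36 α-chain T cells with Il17a anywhere, 14 had Ccr6, 14 Il1r1, 7 Il17f, 4 Il23r and 2 Cd163l1. These counts depend on depth, and a missing UMI does not show a missing RNA.

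The regulators of the program that are described here were mostly not called in γδ T-like cells. The nuclear receptor gene Rora had a ratio of 0.848, Maf, a factor needed by IL-17-producing γδ T cells, 0.967, Blk, a kinase of the same cells, 1.35, and Zbtb16, which encodes PLZF, 1.39. Stat3, the transducer of IL-23 signals, was at 1.28, the ligand-activated factor Ahr at 1.01, Nfkbiz, an IL-1-induced cofactor, at 0.911 and Runx1 at 1.02; none met the rule. Irf4, a factor induced by antigen receptor signals, was called lower with 20 and 5 UMIs, a ratio of 0.297 (0.0871 to 0.815).

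In CD4 conventional T-like cells Ahr was called lower, with 337 UMIs in 177 cells and 115 UMIs in 79 cells, a ratio of 0.526 (0.422 to 0.651). Maf, with 2159 and 945 UMIs, had a ratio of 0.674 (0.624 to 0.728), and Runx1, with 504 and 234, a ratio of 0.715 (0.610 to 0.837); neither reached the 1.5-fold of the size rule. Stat3 (0.995), Nfkbiz (1.01), Batf (1.11), Irf4 (0.845) and Rora (0.813) were not called.

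Of 19 T cell receptor genes 9 had enough UMIs in the γδ T-like class, and 1 was called, beside 7.57% of all genes there. Trdc had 697 and 556 UMIs, a ratio of 0.948 (0.846 to 1.06), and Tcrg-C1 254 and 195, a ratio of 0.912. Trac was called lower, with 132 and 63 UMIs in 29 cells of each library and a ratio of 0.567 (0.413 to 0.771). Cd4, from the list of other cells' markers, was called lower too, with 26 UMIs in 12 cells and 5 UMIs in 4 cells, 0.228 (0.0685 to 0.605). Trbc1 (ratio 1.14), Trbc2 (0.914), Tcrg-C2 (0.930), Tcrg-C4 (1.01), Trgv2 (0.792) and Trdv4 (0.810) were not called.

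The receptors' partners and ligands were measured mostly in other cells. Basophil-like cells (19 and 3) and neutrophil-like cells (44 and 6) are not placed in the rankings of highest class given from here on. Il12rb1, the chain that pairs with IL-23R, was highest in γδ T-like cells, with 20 UMIs (43.0 CPM) and 33 UMIs (84.3 CPM), and was called higher there at a ratio of 1.96 (1.09 to 3.604); the metformin cell with 82 Il13 UMIs held 8 of the 33. Without that cell the ratio was 1.58 (0.843 to 3.002) and the call was lost, and in all δ-chain T cells it was 1.01 (23 and 32 UMIs). Regulatory T-like cells came next at 42.7 and 50.1 CPM, in control not separable from the γδ class. Il1rap, the accessory chain of IL-1R1, was too sparse to place, with 3 UMIs in the γδ T-like cells of each library. Il1r2, the decoy receptor for IL-1, was highest in conventional dendritic-like cells (112 and 147 CPM), and Il1rn, the natural antagonist, in macrophage-like cells (512 and 457 CPM). Il10rb, the shared chain of the IL-22 receptor, was highest in microglia-like cells (191 and 187 CPM).

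The IL-17 receptor chains were divided between myeloid, stromal and γδ T cells. Il17ra, the common chain, was highest in monocyte-like cells (219 and 254 CPM). Il17rc, which pairs with it for IL-17A and IL-17F, was highest in the cluster led by Col1a1 and Dcn (58.0 and 45.9 CPM), with 28 of all 44 and 30 of all 43 UMIs. Il17re, the partner chain for IL-17C, was highest in γδ T-like cells, 39 UMIs (83.9 CPM) and 20 UMIs (51.1 CPM), a ratio of 0.609 (0.337 to 1.07) that did not meet the rule. In CD4 conventional T-like cells Il17re was called lower, 38 and 6 UMIs, a ratio of 0.243 (0.0840 to 0.580).

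The inducing cytokines differed in the class where they were highest. Il1b was highest in macrophage-like cells at 2806 and 3142 CPM and Il1a in microglia-like cells at 296 and 268 CPM. Il12b, the chain shared by IL-12 and IL-23, was highest in mature dendritic-like cells at 447 and 411 CPM, while Il23a, the chain proper to IL-23, had only 96 and 86 UMIs in all, and its highest CPM rested on 2 and 3 UMIs of a low-UMI cluster. Tgfb1 was highest in monocyte-like cells, at 455 and 441 CPM, with NK-like cells next in control at 366 CPM, and Il18 in macrophage-like cells, at 58.3 and 51.1 CPM. Among the classes placed, Il6 was highest in mature dendritic-like cells in control (38.5 CPM) and in mast cell-like cells in metformin (62.8 CPM). Il6 was also among the leading genes of the basophil-like cluster, whose CPM is not given here. Ccl20, the CCR6 ligand, had 26 UMIs in control, 23 of them in 7 CD4 conventional T-like cells, and 0 in metformin.

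Of the IL-17 and IL-22 target genes 3 of 10 had enough UMIs in γδ T-like cells and none was called, beside 7.57% of all genes there. In CD4 conventional T-like cells S100a9 had 38 and 2 UMIs, at most 2 a cell, beside 44 and 6 neutrophil-like cells in the libraries; the part of free neutrophil RNA in that value was not tested. Among the other cytokines Areg was called higher in γδ T-like cells, 41 and 697 UMIs, but 610 of the 697 were in the same metformin cell that held 82 Il13 UMIs and none of the 7 genes. In CD4 conventional T-like cells 6 of 10 other cytokines had enough UMIs, and 3 were called lower and 1 higher, beside 4.89% of all genes there. Lower were Csf2, which encodes GM-CSF (355 and 65 UMIs, 224 of the 355 in 1 cell), Il21 (239 and 95) and Il10 (62 and 16, with 30 of the 62 in 1 cell, in 13 and 9 cells), and higher was Areg (81 and 126, 63 of the 126 in 1 cell). In the α-chain T cells with Cd4, 6 of these cytokines had enough UMIs, and 2 were called higher and 2 lower, beside 4.64% of all genes there. Higher were Il10, with 212 and 274 UMIs and a ratio of 1.83 (1.52 to 2.20), and Areg (2.485). Lower were Csf2 (0.269, with 224 of its 362 control UMIs in 1 cell) and Il21 (0.445). Of the surface genes known from IL-17-producing γδ T cells, 9 of 10 had enough UMIs in the γδ T-like class and none was called. Their median log2 ratio was -0.04, beside -0.05 for all genes, of which 7.57% were called. In CD4 conventional T-like cells 4 of 9 of the same genes were called lower and none higher: Ramp1 (ratio 0.397), Aqp3 (0.237), Tmem176a (0.410) and Tmem176b (0.305). Their median log2 ratio was -0.58, beside -0.06 for all genes of that class, of which 4.89% were called. In the α-chain T cells with Cd4, 4 of 9 were called lower and 2 higher, Ccr2 (1.92) and Ltb4r1 (1.68), beside 4.64% of all genes there.

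The genes most like each member were taken as the 3 with the highest Pearson r of CPM over 20 points, for which 10 lymphocyte classes reached 50 cells in both libraries. With 1 class far above the others for most members, these values rest on that class and are given as a description. Tmem176a (r = 0.9996), Tmem176b and Sdc1 were most like Il17a. Il23r and Cd163l1 were most like each other (r = 0.9995), with Tmem176b next for both. For Il1r1 the genes were Bcl2a1a (r = 0.9986), Nr1d1 and Calca. Il17f was most like Atrnl1 (r = 0.960), C030034L19Rik and Hlf. These had 6 of 64, 11 of 58 and 57 of 136 lymphocyte UMIs in the γδ T-like class. Ccr6 was most like Nid1 (r = 0.9499), Marcksl1 and Plekho1, which had 1 of 77, 13 of 1140 and 10 of 1509 there. Il22 had 43 lymphocyte UMIs, under the 50 asked for.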

How the data were processed

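Both libraries were made from sorted cells with a 10x Genomics droplet kit, per the labels' protocols. The deposited values are raw UMI counts per gene and barcode; the submitters' processing notes name Cell Ranger, Seurat and the build mm10, and the matrix software was version 3.0.0 per the file headers. Aligner settings and the annotation are not given in the sources used here.

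Barcodes with fewer than 300 genes or over 10% mitochondrial UMIs were left out, and doublets marked by Scrublet (62 and 37 cells) were removed. Cells were clustered with Leiden in scanpy 1.11.5 on 2000 variable genes, 30 principal components and 15 neighbours. The resolution was 1.0, then 1.5 for T, NK and innate lymphoid cells. The members and the lists of regulators, receptor partners, IL-17 receptor chains, inducing cytokines, target genes and other cytokines were kept out of the variable genes. The lists of γδ surface genes and T cell receptor genes were not kept out. For each class and library the UMIs were added up and scaled to CPM; log2 ratios have 0.5 UMI added. The intervals treat UMIs as independent molecules, which UMIs of 1 cell are not. The ratio interval was tried on simulated counts drawn independently for each gene. That simulation leaves out UMIs held by few cells, so it cannot show how the interval behaves for such genes. No p-value is given.

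The members and lists were chosen with earlier results of these data known; the receptor split, the cytokine-cell threshold and the alternatives on them were added after the class's make-up was seen. Genes named besides the members are the T cell receptor and regulator genes with at least 20 UMIs in γδ T-like cells of 1 library, genes of the other lists that met the size rule there, receptors, partners and ligands in their highest class, and the 3 genes most like each member; genes named in CD4 T cells beyond these, and single cells, were chosen after their values were seen. Tcrg-V2 was listed but is not used here, and 1 listed gene is not reported here, nor are the counts of its list.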

Additional observations from a re-analysis of the deposited data

Results flagged for a closer look

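UMIs of the members were also counted in barcodes that entered no comparison, above a floor of 3 UMIs. Among the 739 control barcodes over the mitochondrial limit or under the gene minimum there were 79 UMIs of Il17a in 6 barcodes (13.6% of all its deposited control UMIs, 39 of them in 1 barcode), 117 of Ccr6, 34 of Cd163l1 and 13 of Il1r1. Among the 867 such metformin barcodes there were 13 UMIs of Il17a in 1 barcode, 76 of Ccr6, 24 of Cd163l1 and 10 of Il1r1. Barcodes marked as doublets held 29 UMIs of Ccr6 and 5 of Il1r1 in control. In metformin they held 5 UMIs of Ccr6, and 15 of Il17a and 15 of Cd163l1, each in 1 barcode.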

How the results depend on the processing

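No paired analysis was possible because each group is 1 library. Of 79 recomputed ratios 72 kept their side of the size rule. Il17a in γδ T-like cells met it under each library clustered on its own (1.55, 217 against 279 UMIs) and in the α-chain cells of the class (0.142). Il17f lost its call under the transcript gate (0.193), separate clustering (0.483), thinning to 1 depth (0.0735) and in the δ-chain cells (0.265). In the gate, separate clustering and δ-chain cells its UMIs were under the minimum of 20, so it could not be called there. The thinned ratio was near the 0.0679 of unthinned cells. What lies behind the lower counts was not tested. Thinned Il22 was at least 6.67-fold higher (0 against 17 UMIs), under the minimum of 20. Of 69 recomputed shares in γδ T-like cells 11 moved beyond their interval. Under the transcript gate of at least 2 Trdc UMIs the control shares were 43.5% for Il17a, 8% for Il17f, 0% for Il22, 65.7% for Il23r, 36.0% for Il1r1 and 0.139% for Ccr6, and the metformin shares 90.1% for Il17a, 69.2% for Il23r and 94.8% for Cd163l1. With at most 5% mitochondrial UMIs the share was 87.3% for Il17a in control and 94.4% for Cd163l1 in metformin. After thinning 0% of control γδ T-like cells had Il22. The 8 recomputed cytokine-cell ratios and the 14 richest-cell shares kept their call or stayed within their interval; for α-chain cytokine cells the ratio ran from 0.118 to 0.484. Il12rb1 without 1 cell was an alternative added after seeing the data. With 10 and 13 UMIs Ccr6 in γδ T-like cells was under the minimum of 20.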
